A study of Mus musculus with 22 samples.

Results

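The 10 genes described here, whose products join, anchor or signal between neighbouring islet cells, were followed in sorted mouse β-cells. They were taken by symbol from the 52327 genes of the count table: the connexin gene Gjd2, the cadherin genes Cdh1 and Cdh2, the adhesion gene Ncam1, the Eph receptor genes Epha4, Epha5 and Epha7, and the ephrin genes Efna5, Efnb1 and Efnb2. All 10 had a row, and 7 had enough counts to be tested. Epha4, Epha5 and Efnb2 did not. Every mouse, controls included, was a male of mixed background, aged 3 months, with the genotype GluDTR+, SstDTR htz, PpyDTR htz. These alleles place the diphtheria toxin receptor in glucagon-, somatostatin- and pancreatic polypeptide-producing cells, so that diphtheria toxin (DT) removes the α-, δ- and γ-cells around the β-cells. β-cells were isolated by fluorescence-activated sorting 1 month after ablation, from mice fasted for 8 h or fasted and then refed for 2 h. Each library came from 1 mouse: 5 control and 6 DT mice were sampled fasted, and 5 control and 6 DT mice refed. The labels do not say what the controls were injected with and name no batch.

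β-cells work as a coupled population. Gjd2 encodes connexin 36, whose channels pass ions and small molecules between β-cells and synchronise their electrical activity and calcium oscillations. E-cadherin (Cdh1) and N-cadherin (Cdh2) hold cells together by binding their own kind on the next cell, and NCAM (Ncam1) is an immunoglobulin-family adhesion molecule that takes part in the sorting of islet cell types. Eph receptors are tyrosine kinases that respond to ephrins on a touching cell. Ephrins signal back into their own cell as well. In β-cells, EphA forward signalling is known to restrain insulin secretion and ephrin-A reverse signalling to favour it, and removal of glucose is known to tip the balance towards the former.

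The start regions of 3 of these genes are shown because they stand for the range of behaviour: Epha7 had the largest change with refeeding, Efnb1 was a clearly expressed ephrin gene, and Efnb2, its near relative, was barely detected. The sequences are from RefSeq (GRCm38.p6), on the coding strand, and hold only bases upstream of the RefSeq gene. Epha7 is at chr4:28812881-28813065 (plus strand), Efnb1 at chrX:99135811-99136060 (plus strand) and Efnb2 at chr8:8661243-8661492 (minus strand). Capitals mark matches, on either strand, to the GC box (letters GGGCGG), the CCAAT box (spelled by its name), the TATA box (letters TATAAA) and the core of the cAMP response element (letters TGACG).
Epha7: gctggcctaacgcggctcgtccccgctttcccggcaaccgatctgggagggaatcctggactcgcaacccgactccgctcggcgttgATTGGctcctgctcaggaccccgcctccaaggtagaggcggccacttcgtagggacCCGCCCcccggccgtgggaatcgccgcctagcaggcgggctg
Efnb1: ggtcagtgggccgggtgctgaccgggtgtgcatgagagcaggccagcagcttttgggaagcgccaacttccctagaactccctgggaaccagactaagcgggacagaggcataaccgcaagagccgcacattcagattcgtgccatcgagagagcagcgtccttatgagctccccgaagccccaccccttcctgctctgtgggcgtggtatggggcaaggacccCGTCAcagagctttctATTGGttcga
Efnb2: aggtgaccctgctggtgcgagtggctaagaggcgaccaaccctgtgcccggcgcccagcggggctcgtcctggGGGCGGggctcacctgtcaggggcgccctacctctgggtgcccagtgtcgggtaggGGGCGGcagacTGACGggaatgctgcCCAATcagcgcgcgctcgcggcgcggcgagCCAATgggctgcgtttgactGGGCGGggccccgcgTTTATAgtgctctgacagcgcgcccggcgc

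All 3 start regions were rich in G and C, with 69.7% in the 185 bases of Epha7, 60.0% in Efnb1 and 72% in Efnb2, against a median of 52.4% over 32851 mouse promoter windows of 250 bases. Efnb2, which was barely transcribed in these cells, had the most matches, with 3 GC boxes, 2 CCAAT boxes, 1 TATA box and 1 core of the cAMP response element. Epha7 had a GC box 42 bases and a CCAAT box 98 bases before the gene, and Efnb1 had TGACG 26 bases and a CCAAT box 10 bases before it. Such short matches are common: 32.7% of all windows held a GC box, 33.8% a CCAAT box, 17.8% the core TGACG and 12.4% a TATA box. The full cAMP response element TGACGTCA (1.55% of windows), the E-box CACGTG (6.02%) and the FoxO motif GTAAACA (3.17%) were looked for too, and their letters were not in these 3 windows.

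Library totals ranged from 16584117 to 24988880 counts. Levels are given as CPM, counts scaled to library size with edgeR's TMM factors. Sst, the δ-cell hormone gene, fell by 6.96 ± 0.72 on the log2 scale over both feeding states (SE; edgeR quasi-likelihood test, adjusted p = 7.7e-05) and Gcg, the α-cell hormone gene, fell by 6.70 ± 1.01 (adjusted p = 0.0128). In fasted or refed mice alone Gcg did not pass the test (edgeR adjusted p = 0.0630 and 0.178). Of the 5 α-cell markers tested, 3 were above 0 and 2 below over both feeding states (median 0.18). Ppy, the γ-cell hormone gene, was at -1.81 ± 0.52 in DT mice and did not pass the test (adjusted p = 0.162). β-cell identity genes dominated every library, with insulin at 40.3% to 69.4% of counts. Exocrine RNA was present to very different degrees, since the summed acinar markers ran from 67.7 to 36194 CPM. Refed DT mice 13 and 20 stood apart. Mouse 13 had the most insulin reads and the fewest genes detected (15863), and mouse 20 had the most mitochondrial reads (1.59%) and the highest immune marker sum (492 CPM). Results on the members that rest on the refed DT group were also computed without these mice. The 2 mice were set apart by these traits of the same data. Fasted DT mouse 7, with an immune marker sum of 369 CPM, was kept.

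Per kilobase of annotated exon, the contact genes of fasted control β-cells fell into 3 tiers. Cdh1 (79.0 ± 7.02 CPM per kb, SD, n = 5) and Gjd2 (72.5 ± 6.97) stood at the top, above 98.2% and 97.5% of the 13730 tested genes with a known length over all libraries. Cdh2 (9.45 ± 1.39), Ncam1 (7.36 ± 1.83) and Efnb1 (7.10 ± 0.466) formed the middle tier. Epha7 (0.875 ± 0.233) and Efna5 (0.728 ± 0.138) were lower still, above 24.1% and 21.8% of those genes. The ranges of the 5 mice did not overlap between tiers. Within the middle tier Ncam1 overlapped both Cdh2 and Efnb1, while Cdh2 (from 7.79) lay above Efnb1 (up to 7.76). Cdh2 moves to 15.7 CPM per kb when the longest transcript is taken as its length, which keeps its tier. Per kilobase of annotated exon, E-cadherin transcript outnumbered N-cadherin transcript 8.52 ± 1.49 times in fasted controls, 8.33 ± 1.15 times in fasted DT mice, 10.2 ± 1.12 times in refed controls and 9.56 ± 1.99 times in refed DT mice. These ratios depend on the length taken. With the longest transcripts, Cdh1 was at 81.6 and Cdh2 at 15.7 CPM per kb in fasted controls, which makes the ratio smaller.

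**Figure D1:**
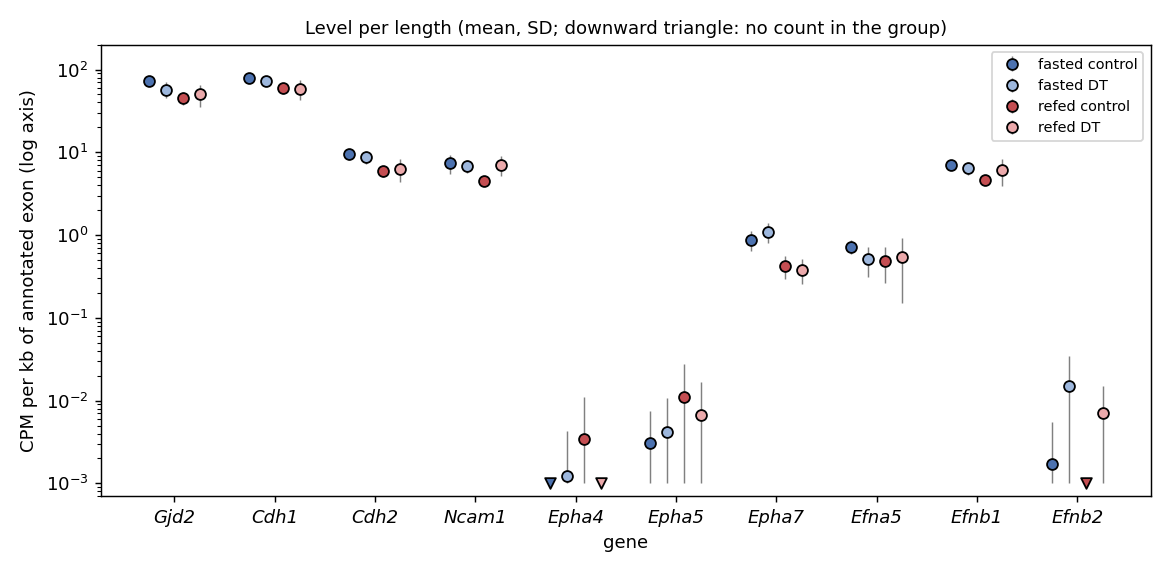
Level per length of each contact gene on a log axis (CPM per kb of annotated exon), as mean and SD over the mice of a group (n = 5 or 6); a downward triangle marks a group without a count, and bars that reach 0 end at the bottom of the plot. Cdh1 and Gjd2 lie near 45 to 79, Cdh2, Ncam1 and Efnb1 near 4.5 to 9.5, Epha7 and Efna5 near 0.4 to 1.1, and the remaining genes at or near 0.

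The absent members belonged to the Eph and ephrin families. Epha4, a receptor that binds ephrins of both classes, had 4 counts in all 22 libraries together, 1 in fasted DT mouse 7 and 3 in refed control mouse 19. Epha5, an EphA receptor known from work on islet communication, had 0 to 13 counts per library and none in 13 of 22. Efnb2, a transmembrane ephrin, had 0 to 8 counts and none in 14 of 22, including every refed control. A count of 0 allows up to 3 counts, or 0.120 to 0.274 CPM depending on the library, so these genes were at or near the detection limit and no comparison was made for them. These limits cover counting error only.

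In control mice, refeeding went with lower transcripts of most tested members. Of the 7 tested members, 5 fell (Gjd2, Cdh2, Ncam1, Epha7 and Efnb1) and none rose, where 12.3% of the 14064 tested genes fell and 23.3% changed in either direction (edgeR quasi-likelihood test, adjusted p under 0.05 over all tested genes, no minimum fold). The members were chosen with earlier results of these data known, and this background was not matched to their levels. Their share, here and below, is therefore a description and no test of contact genes as a set. The median member stood at -0.67 on the log2 scale against -0.04 for all tested genes. The fall was to 0.490 of the fasted level for Epha7 and to between 0.618 and 0.648 for the other 4. The 12 acinar markers summed to 128 to 13392 CPM in fasted controls and to 1329 to 21932 CPM in refed controls. These ranges overlapped, and of the 11 acinar markers tested all were above 0 (median 1.04 on the log2 scale) and edgeR called 0 (0 at an unadjusted p under 0.05). With the acinar marker level as a covariate 5 members were called as well. In bulk RNA a smaller share of cells with a transcript and less transcript per cell cannot be told apart.

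Connexin 36 transcript was at 225, 207, 196, 184 and 232 CPM in fasted control mice 1 to 5. After refeeding, Gjd2 was at 154, 123, 102, 158 and 120 CPM in control mice 12, 18, 19, 21 and 22. Every refed control was below every fasted control. What share of all tested genes separates in this way was not counted, here or for the other members. Gjd2 fell by 0.67 ± 0.20 (SE) on the log2 scale (edgeR adjusted p = 0.0158). Without refed control mouse 19 the change was -0.59 and the adjusted p 0.0501. The exons of Gjd2 (chr2:114009601-114014378, minus strand) share 57 of 2879 bases with the antisense gene A530058N18Rik, and whether reads were counted by strand is not stated.

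The cadherins moved unequally in the control mice. Cdh2 was at 89.9, 62.9, 75, 68.5 and 85.0 CPM in fasted controls and at 47.3, 38.9, 43.6, 53.9 and 53.4 CPM in refed controls. The groups did not overlap, and Cdh2 fell by 0.69 ± 0.19 on the log2 scale (edgeR adjusted p = 0.0111). Cdh1 was at 322, 353, 345, 386 and 402 CPM in fasted controls and at 285, 238, 242, 345 and 255 CPM in refed controls. Its groups overlapped through refed control mouse 21, and its change of -0.41 ± 0.16 did not pass the test (adjusted p = 0.0724). Cdh1 passed in the fit of only these 2 groups (-0.42, edgeR adjusted p = 0.0147), without mice 13 and 20 (-0.37, 0.00533), without mouse 13 alone and without refed control mouse 21. E-cadherin is also a gene of duct cells. The 7 duct markers summed to 389 to 492 CPM in fasted and to 299 to 405 CPM in refed controls, nearly all of it Krt7, with Cftr at or below 0.0471 CPM in both groups. Krt7 fell by 0.33 ± 0.12 (edgeR adjusted p = 0.0490), and 4 of the 6 tested duct markers were above 0. Their part in the Cdh1 values was not tested, nor was whether Cdh2 fell more than Cdh1.

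Ncam1 was at 84.6, 71.6, 55.8, 42.8 and 64.0 CPM in fasted controls and at 39.4, 44.2, 34.4, 41.5 and 37.6 CPM in refed controls. Fasted mouse 4 lay within the refed range, and the other 4 fasted mice above it. Ncam1 fell by 0.69 ± 0.19 on the log2 scale (edgeR adjusted p = 0.0105). Of the 8664 exon bases of Ncam1, 417 are shared with the antisense gene Gm11149. NCAM is also a gene of nerve and glial cells. Of 8 Schwann and neural markers, Gfap had no count in any library, Sox10, Cdh19, Ngfr and S100b were at or below 0.476 CPM, and Elavl4, a neuronal RNA-binding protein gene also active in endocrine cells, made up most of the sum. That sum was 31.6 to 51.5 CPM in fasted controls and 18.5 to 25.1 CPM in refed controls. Elavl4 itself fell by 0.96 ± 0.12 (edgeR adjusted p = 1.5e-05). The part of these cells in the fall of Ncam1 was not tested.

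The Eph and ephrin members were led by Epha7, the only receptor gene among the members with enough counts to be tested. It was at 7.18, 12, 8.38, 9.66 and 6.04 CPM in fasted controls and at 3.55, 3.45, 6.30, 4.67 and 3.17 CPM in refed controls. Refed mouse 19 lay just above fasted mouse 5, and no other values crossed. Epha7 fell by 1.03 ± 0.27 on the log2 scale (edgeR adjusted p = 0.00824). Efnb1, the X-linked B-class ephrin, was at 26.8, 23.9, 22.4, 24.3 and 25.1 CPM in fasted controls and at 16.4, 14.4, 16.4, 17 and 15.2 CPM in refed controls. Its groups did not overlap, and it fell by 0.63 ± 0.20 (adjusted p = 0.0266). The Efnb1 call was lost when fasted control mouse 1, 4 or 5 or refed control mouse 18 or 22 was left out, and without the filter on low counts (adjusted p = 0.0555). Efna5, a membrane-anchored A-class ephrin that EphA receptors bind, lay between 2.37 and 3.55 CPM in fasted controls and between 1.00 and 3.42 CPM in refed controls. Its change was -0.56 ± 0.42 (adjusted p = 0.374, interval of 2 SE from -1.41 to 0.29), so a change of the size seen in the other members could not be told from none at its depth of 13 to 81 counts per library.

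**Figure D2:**
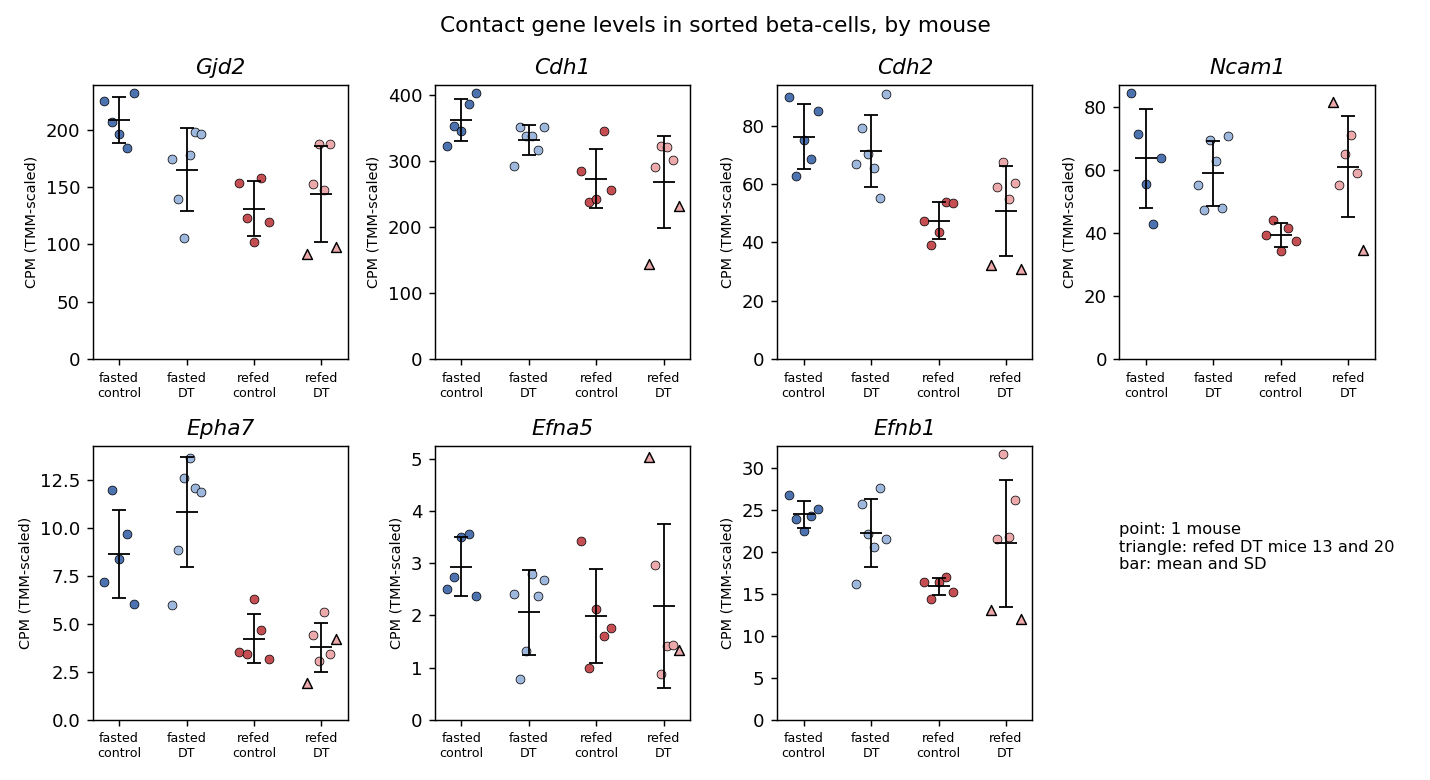
Level in CPM (TMM-scaled) of the 7 tested contact genes, 1 point per mouse, with the group mean and SD; triangles mark refed DT mice 13 and 20. Refed control mice lie below all fasted control mice for Gjd2, Cdh2 and Efnb1, and refed DT mice lie below all fasted DT mice for Epha7. The share of all tested genes whose groups separate in this way was not counted.

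In the ablated DT mice, refeeding went with a lower level of 2 of the 7 tested members, Epha7 and Cdh2, against 13.5% of all tested genes lower and 24.4% changed in either direction. Epha7 was at 6, 8.87, 12.6, 13.6, 12.1 and 11.9 CPM in fasted DT mice 6 to 11. It was at 1.92, 4.44, 3.08, 5.61, 3.42 and 4.23 CPM in refed DT mice 13 to 17 and 20. The groups did not overlap, and Epha7 fell by 1.51 ± 0.25 on the log2 scale, to 0.352 of the fasted level (edgeR adjusted p = 0.000172). It fell by 1.31 (adjusted p = 0.000868) without mice 13 and 20. Averaged over control and DT mice, the fall was 1.27 ± 0.18 (adjusted p = 1.36e-05).

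Cdh2 was at 66.8, 79.3, 70.1, 65.6, 55.3 and 90.9 CPM in fasted DT mice and at 32.3, 58.9, 67.4, 54.9, 60.4 and 30.8 CPM in refed DT mice. The lowest refed values were those of mice 13 and 20, and the other 4 refed mice overlapped the fasted ones. Cdh2 fell by 0.49 ± 0.17 on the log2 scale (edgeR adjusted p = 0.0419). Without mice 13 and 20 the change was -0.16 and the adjusted p 0.374. The call held in 9 of the 22 fits that left out 1 library, and it was lost with DESeq2 (adjusted p = 0.0583).

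The remaining members gave no call in DT mice. Gjd2 lay between 105 and 198 CPM in fasted DT mice and between 91.3 and 187 CPM in refed DT mice, a change of -0.20 ± 0.18 (edgeR adjusted p = 0.452) that became 0.11 without mice 13 and 20. Cdh1 changed by -0.30 ± 0.15 (adjusted p = 0.142), and by -0.02 without these mice. Ncam1 was at 0.05 ± 0.17 (0.866), Efna5 at 0.05 ± 0.39 (0.939) and Efnb1 at -0.08 ± 0.18 (0.790), the last becoming 0.26 without mice 13 and 20. Averaged over control and DT mice, 5 of 7 members fell with refeeding, where 21.7% of all tested genes fell and 38.9% changed: Gjd2 by 0.43 ± 0.13 (adjusted p = 0.0120), Cdh1 by 0.35 ± 0.11 (0.0128), Cdh2 by 0.59 ± 0.13 (0.000945), Efnb1 by 0.35 ± 0.14 (0.0422), and Epha7 as given above. Without mice 13 and 20 the count was 3, against 21.9% of tested genes lower. Cdh1 (-0.20, edgeR adjusted p = 0.0230), Cdh2 (-0.41, 0.00121) and Epha7 were then called, and Gjd2 (-0.26) and Efnb1 (-0.17) were not. The Efnb1 call of this average held in 6 of 22 fits with 1 library left out.

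In fasted mice, no contact gene was called between β-cells with and without ablated neighbours. With edgeR, 0 of 7 members were called and 0 had an unadjusted p under 0.05, and DESeq2 and limma voom gave the same counts. The background was 0.0284% of tested genes called, with 1172 of 14064 at an unadjusted p under 0.05 in edgeR. Gjd2 was at 174, 140, 105, 178, 198 and 196 CPM in fasted DT mice, with mice 7 and 8 lowest, and the other 4 near or within the fasted control range. Its difference from fasted controls was -0.34 ± 0.19 on the log2 scale (edgeR adjusted p = 0.667), with an interval of 2 SE from -0.71 to 0.03. Cdh1 (-0.13 ± 0.15), Cdh2 (-0.10 ± 0.18), Ncam1 (-0.11 ± 0.18) and Efnb1 (-0.14 ± 0.19) had 2 SE intervals within -0.52 to 0.26. Epha7 was at 0.33 ± 0.26 and Efna5 at -0.51 ± 0.40, with wider intervals of -0.18 to 0.84 and -1.31 to 0.30.

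In refed mice the same comparison also called 0 of 7 members with edgeR, against 0.0356% of tested genes. An unadjusted p under 0.05 was reached by 2 members, and by 1410 of all 14064 tested genes. DESeq2 called 0 with 2 such members, and limma voom 0 with 1. These 2 were Ncam1 and Efnb1. Ncam1 was at 81.7, 55.2, 65.1, 71.2, 59.2 and 34.8 CPM in refed DT mice 13 to 17 and 20, where refed controls ended at 44.2 CPM. All but mouse 20 were above every refed control. The difference was 0.63 ± 0.18 on the log2 scale (edgeR adjusted p = 0.223). Efnb1 was at 13.1, 21.6, 31.7, 21.8, 26.2 and 12 CPM in the same mice, where refed controls ended at 17 CPM. Mice 13 and 20 were below all refed controls and the other 4 above all of them, with a difference of 0.41 ± 0.19 (adjusted p = 0.488).

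Without mice 13 and 20, which were set apart by library traits seen in these data, both genes passed the test. For Efnb1 they were the only refed DT mice below the refed controls, so leaving them out in itself raised its difference. Ncam1 was higher in refed DT than in refed control mice by 0.69 ± 0.16 (edgeR adjusted p = 0.0379) and Efnb1 by 0.69 ± 0.14 (0.0221), where 1.22% of tested genes were called and 0.797% were higher. Ncam1 also passed without mouse 20 alone (0.75 ± 0.16, adjusted p = 0.0430). In all 22 libraries the remaining members were not called, with Gjd2 differing by 0.13 ± 0.19, Cdh1 by -0.02 ± 0.15, Cdh2 by 0.10 ± 0.18, Epha7 by -0.15 ± 0.26 and Efna5 by 0.11 ± 0.41. Their 2 SE intervals reached as far as 0.51 for Gjd2 and 0.93 for Efna5. Without mice 13 and 20 Gjd2 was at 0.38 ± 0.16 (edgeR adjusted p = 0.297), Cdh2 at 0.36 ± 0.13 (0.220), Cdh1 at 0.20 ± 0.10 (0.428), Efna5 at -0.23 ± 0.39 (0.882) and Epha7 at -0.01 ± 0.26 (0.994), again not called. Among the markers, the Schwann and neural sum was 24.7 to 33.6 CPM in refed DT mice against 18.5 to 25.1 CPM in refed controls, although 2 of its 3 tested genes were below 0, the other being Elavl4 (0.51 ± 0.12, adjusted p = 0.168). The immune markers summed to 11.7 to 492 CPM in refed DT mice and 9.13 to 50.6 CPM in refed controls. Of 8 immune markers tested 7 were above 0, with 0 called by edgeR (3 at an unadjusted p under 0.05). The part of either marker group in the higher Ncam1 was not tested. Averaged over feeding states, DT called 0 of 7 members with edgeR, DESeq2 and limma voom, with 0 at an unadjusted p under 0.05 in each. With edgeR, 0.206% of tested genes were called, and 1678 of 14064 had an unadjusted p under 0.05.

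Mice 13 and 20 were low together in 4 members. Gjd2 was at 91.3 and 97.5 CPM in them against 147 to 187 CPM in the other 4 refed DT mice, and Cdh2 at 32.3 and 30.8 against 54.9 to 67.4 CPM. Cdh1 was at 143 and 232 against 290 to 323 CPM, and Efnb1 at 13.1 and 12 against 21.6 to 31.7 CPM. They parted in Ncam1, which was highest of the group in mouse 13 (81.7 CPM) and lowest in mouse 20 (34.8 CPM). Mouse 13 also had the highest Efna5 of all 22 libraries (5.03 CPM) and the lowest Epha7 (1.92 CPM). Its TMM factor was 0.566, where the other libraries ranged from 0.920 to 1.10. Its top ranks in Ncam1 and Efna5 depend on this factor, which raises its CPM. By unscaled counts, mouse 13 had 894 for Ncam1, against 1118 to 1765 in mice 14 to 17. For Efna5 it had 55 counts, against 81 in refed control mouse 12.

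**Figure D3:**
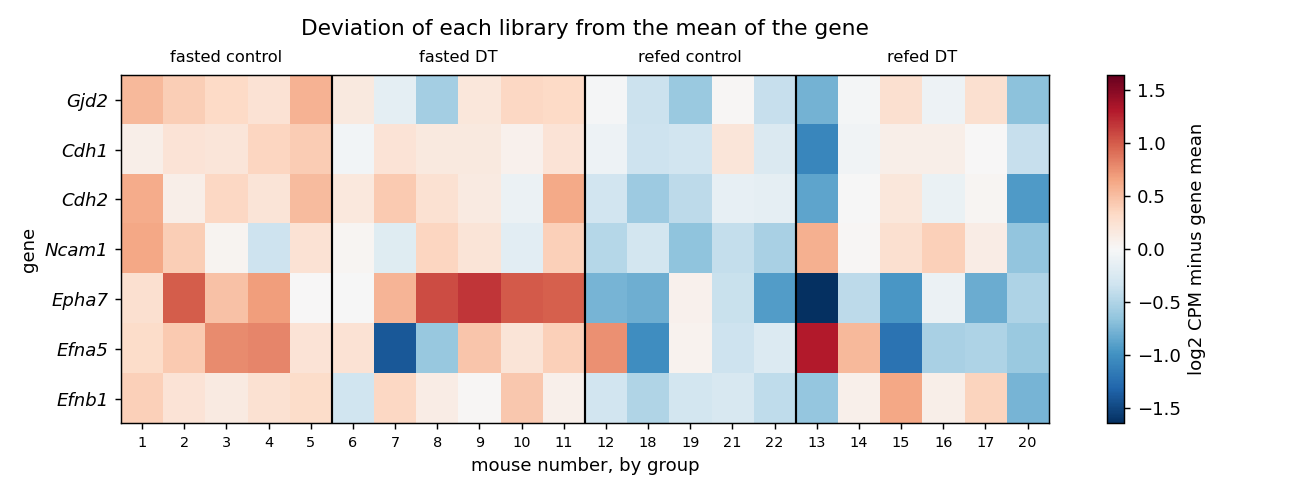
Deviation of each library from the mean of the gene (log2 CPM minus the gene's mean over 22 mice), with mice ordered by group and genes in rows. Fasted mice are mostly above and refed controls mostly below the mean. Refed DT mice 13 and 20 are below it for Gjd2, Cdh1, Cdh2 and Efnb1, and all refed DT mice are below it for Epha7.

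Whether the response to DT differed between feeding states, or equally the response to refeeding between control and DT mice, was tested as an interaction. It called 0 of 7 members with edgeR (1 at an unadjusted p under 0.05), 0 with DESeq2 (2) and 0 with limma voom (1), against 0.00711% of tested genes. Of all 14064 tested genes, 1004 had an unadjusted edgeR p under 0.05. The member at the lowest p was Ncam1, whose DT effect in refed mice exceeded that in fasted mice by 0.74 ± 0.26 log2 units (edgeR adjusted p = 0.590). Efnb1 was at 0.54 ± 0.27 (adjusted p = 0.714), Gjd2 at 0.47 ± 0.26 (0.745) and Epha7 at -0.48 ± 0.36 (0.865). Without mice 13 and 20 the values were 0.85 ± 0.18 for Efnb1 (adjusted p = 0.0640), 0.82 ± 0.21 for Ncam1 (0.103) 0.74 ± 0.21 for Gjd2 (0.140), 0.49 ± 0.18 for Cdh2 (0.259) and 0.35 ± 0.13 for Cdh1 (0.284), none of them called, against 0.0979% of tested genes. The calls made in control mice and not in DT mice are therefore not shown to differ between them.

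**Figure D4:**
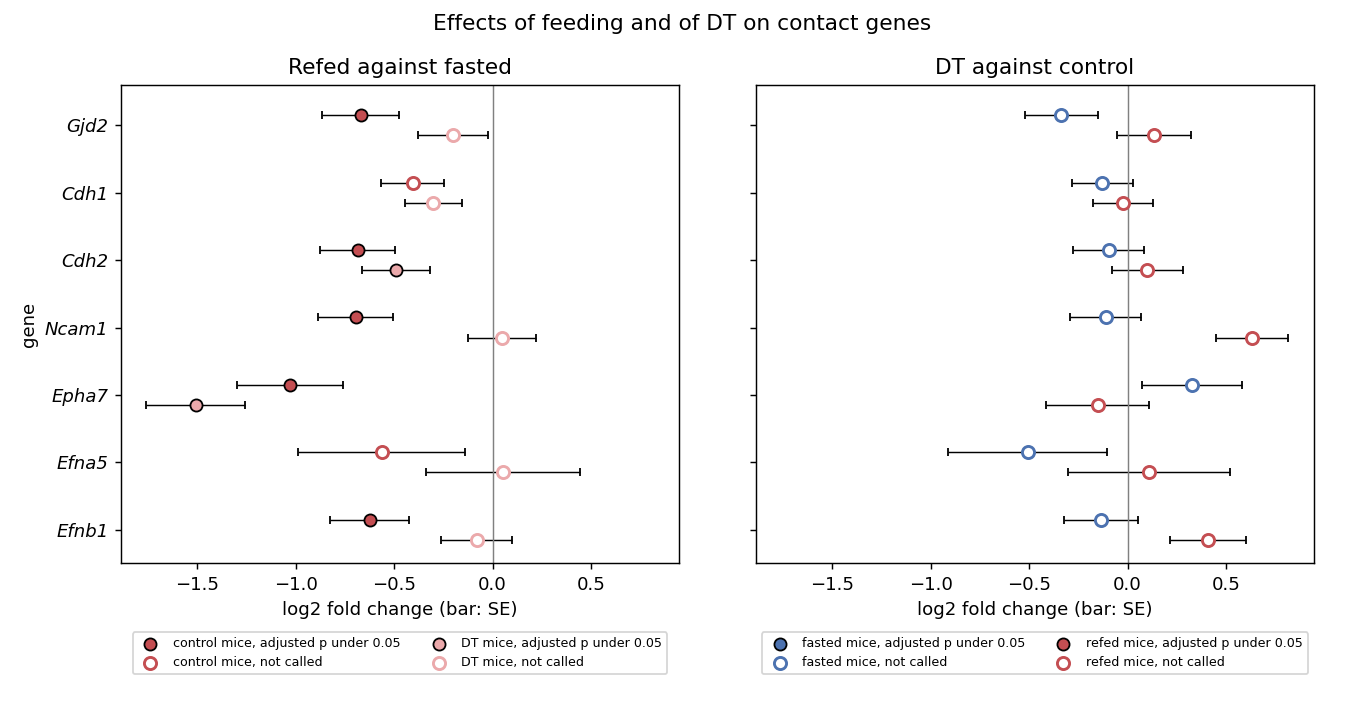
Log2 fold change with its SE for the 7 tested contact genes, for refed against fasted mice on the left and DT against control mice on the right, on the same axis; filled points have an adjusted p under 0.05. On the left, 5 control values and 2 DT values are filled, all below 0, and on the right none is filled.

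Of the 73 tested neighbours of these genes in the same pathways, 3 rose and 9 fell with refeeding in control mice, and 5 rose and 8 fell in DT mice (edgeR). Of all tested genes, 12.3% fell and 23.3% changed in control mice, and 13.5% fell and 24.4% changed in DT mice. Among 20 other connexin and pannexin genes, 7 were tested and 0 were called with edgeR in control or DT mice (1 and 0 at an unadjusted p under 0.05). Of 19 other cadherin genes, 5 were tested. Cdh7 fell in control (-0.82 ± 0.27, adjusted p = 0.0307) and DT mice (-0.93 ± 0.25, 0.00844), and Cdh4, or R-cadherin, fell in DT mice (-1.77 ± 0.58, 0.0301). Of 9 catenin and anchor genes, 8 were tested. Vcl, which encodes the actin linker vinculin, rose in control (0.66 ± 0.23, 0.0444) and DT mice (0.77 ± 0.21, 0.0112), and Jup, or plakoglobin, fell in control mice (-0.44 ± 0.16, 0.0488). In DT mice Jup went the other way and just missed the test (0.40 ± 0.14, edgeR adjusted p = 0.05004). Its interaction was 0.84 ± 0.22 and was not called (edgeR adjusted p = 0.495).

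Of 18 other adhesion and polysialylation genes, 11 were tested and 0 were called in control mice with edgeR (1 at an unadjusted p under 0.05). In DT mice Nectin2 rose by 0.40 ± 0.14 (adjusted p = 0.0435), while L1cam (-1.67 ± 0.50, 0.0182), a relative of NCAM, and Nectin3 (-1.47 ± 0.49, 0.0331) fell. Tight junction genes moved both ways. Of the 17 tested, 1 rose and 4 fell in control mice, among them Cldn7 (0.60 ± 0.11, adjusted p = 0.000405), Cldn4 (-0.96 ± 0.25, 0.00849) and Marveld2 (-0.79 ± 0.24, 0.0209). In DT mice 2 rose and 2 fell, among them Cldn7 (0.63 ± 0.10, 9.33e-05), Marveld3 (0.47 ± 0.12, 0.00742) and Cgn (-0.56 ± 0.14, 0.00477). Cldn7 and Cldn4 encode claudins and Cgn cingulin.

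In the Eph and ephrin families, 5 of 11 other receptor genes were tested and 0 were called with feeding in either treatment with edgeR (0 at an unadjusted p under 0.05). Of these 5, 4 were below 0 and 1 above in control mice (median -0.90 on the log2 scale). In DT mice 4 were also below 0 and 1 above (median -0.63). Of 5 other ephrin genes, 3 were tested and Efna1 fell, from 2.84 ± 1.2 to 0.778 ± 0.427 CPM in control mice (SD, n = 5 each; -1.85 ± 0.50 on the log2 scale, adjusted p = 0.0103). In DT mice it fell from 2.71 ± 0.705 to 0.707 ± 0.462 CPM (n = 6 each; -1.89 ± 0.46, 0.00483). Efna1 and Epha7 thus fell in both treatments, as did Chn1, which encodes the Rac-inactivating protein chimaerin that acts downstream of EphA4. Chn1 fell by 0.83 ± 0.21 (adjusted p = 0.00596) in control and by 1.47 ± 0.19 (1.54e-05) in DT mice. Of the 17 tested signalling partners, Nck1, an adaptor gene, rose in both (0.47 ± 0.16, 0.0358, and 0.49 ± 0.14, 0.0154), and Adam10, which encodes a protease that cleaves ephrins and cadherins, fell in control mice (-0.58 ± 0.18, 0.0250). Of the 73 tested genes on these 8 lists of neighbouring contact genes, edgeR called 0 between DT and control mice, fasted (5 at an unadjusted p under 0.05) or refed (8), and 0 in the interaction (7). Of all 14064 tested genes, 1172, 1410 and 1004 had such an unadjusted p in these comparisons. Without mice 13 and 20, of 74 tested, Jup alone was called: it was higher in refed DT than in refed control mice by 1.00 ± 0.12 (edgeR adjusted p = 0.000832, against 0.78 ± 0.15 and 0.106 in all libraries), with an interaction of 1.07 ± 0.16 (0.0116). In the refeeding comparison of DT mice, Nectin2 (adjusted p = 0.0560) and Nectin3 (0.0997) lost their calls without these mice, and the other neighbours named as called there kept theirs.

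Some genes tracked the members closely across the 22 libraries. Likeness was measured as the root mean square difference of log2 CPM after centring each gene on its mean, over 10191 genes. Gjd2 was close to Abhd15 (0.21), where the median gene was at 0.54. Cdh1 was most like Mthfd1 (0.13) and Ttc8 (0.13), and Cdh2 most like Tmem50a (0.18) and Pcgf3 (0.19). Ncam1 was most like Slc29a4 (0.20) and Serping1 (0.21), Efnb1 most like Rbmx (0.20) and Pgpep1 (0.22), and Epha7 most like Sgpl1 (0.35) and Tbc1d22a (0.37). The values describe these libraries, which share feeding state, depth and scaling.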

How the data were processed

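RNA of sorted β-cells from 22 mice was analysed from the deposited table of read counts per gene symbol, which the authors made with STAR 2.7.2b and HTSeq 0.9.1 on GRCm38.p6, per the submitters' processing notes. Annotation release and strand setting are not given in the sources used here. The table had 0 columns of no sample, and totals per library ranged from 16584117 to 24988880. No pair of the 231 library pairs held identical values.

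The counts went into edgeR 4.0.16 under R 4.3.3 (filterByExpr by group, TMM, 1 coefficient per group, robust quasi-likelihood F tests, Benjamini-Hochberg over 14064 genes). Alternatives were DESeq2 1.42.0, limma 3.58.1 voom, other size factors, no filter, the 2 groups alone, omission of libraries and an acinar marker covariate. Calls were also tested on simulated data. Lengths came from GENCODE M21. The members and the other gene lists were chosen with earlier results of these data known. All members were named, with every called gene of the other lists (at most 4 per list, by p) and the 2 genes most like each called member, and a few genes that this rule selects are not reported here. Single marker genes were named after their values were seen.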

Additional observations from a re-analysis of the deposited data

Results flagged for a closer look

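Of 37 groups of 5 or 6 mice examined gene by gene, 4 held a mouse whose value lay far from the rest of its group (the gap to the nearest mouse against the range of the group, Dixon's test). Chance flags about 1 in 20 groups of normally spread values. That rate does not hold where a single mouse of a group has any count, since such a group is always flagged. This was so for both Epha4 groups and for Efnb2 in fasted controls. All 4 were genes near the detection limit. Epha4 was at 0.0595 CPM in fasted DT mouse 7, which is 1 count, and at 0.139 CPM in refed control mouse 19, which is 3 counts, with every other mouse of those groups at 0. Efnb2 was at 0.0582 CPM in fasted control mouse 2, which is 1 count, and at 0.149 CPM in refed DT mouse 17, where the nearest mouse was at 0.0494 CPM. The last is 3 counts, and all 4 values are within the 3 counts that a count of 0 allows.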

How the results depend on the processing

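No paired analysis was possible because every mouse number occurs in 1 group only, so the groups share no numbers. The count of members that fell with refeeding in control mice was 4 to 6 in every setting and with each library left out, against 5. In DT mice it was 2, and 1 with DESeq2, with relative log expression size factors, without the low-count filter, with the 2 groups alone and without mice 13 and 20 (1 to 2 with a library left out). The average over treatments gave 5, 6 with the acinar covariate, 3 without mice 13 and 20, and 4 with DESeq2, with the other size factors and without the filter (4 to 6 with a library left out). Efnb1 lost its call in those 3 settings (adjusted p = 0.0568 with DESeq2, and with edgeR 0.0561 and 0.114). Between DT and control, members called in refed mice went from 0 to 2 without mice 13 and 20 (0 to 1 with a library left out), and stayed at 0 in fasted mice, in the interaction and over both feeding states.

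Values near 0 changed sign. Between DT and control in refed mice, Efna5 was 0.11, but -0.14 with limma voom and -0.23 without mice 13 and 20, where Cdh1 was 0.20 against -0.02. Refed against fasted in DT mice, Efna5 was 0.05, but -0.22 with voom and -0.22 without mice 13 and 20, where Gjd2 was 0.11 and Efnb1 0.26, and Ncam1 was -0.058 with the acinar covariate against 0.05. Over both feeding states, Cdh2 was -0.018 with voom and -0.0068 without the filter, and without mice 13 and 20 Gjd2 was 0.0080 and Cdh1 0.022. With a library left out, signs changed for Ncam1 in fasted mice (-0.23 to 0.012), in refed mice for Cdh1 (-0.083 to 0.12), Epha7 (-0.30 to 0.035) and Efna5 (-0.29 to 0.40), in DT mice for Ncam1 (-0.0039 to 0.17), Efna5 (-0.28 to 0.22) and Efnb1 (-0.23 to 0.094), and for Cdh2 over both states (-0.048 to 0.056). The cause was not tested.

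Over all tested genes, DT calls in fasted mice went from 4 to 48 (DESeq2), 2 (other size factors), 0 (no filter, or 2 groups alone) and 26 (without mice 13 and 20). In refed mice they went from 5 to 83 (DESeq2), 1 (voom), 2 (2 groups alone), 175 (without mice 13 and 20) and 9 (acinar covariate), in the interaction from 1 to 21, 0 (voom) and 14, and over both states from 29 to 177, 8 (no filter) and 123. Depth limits Epha4, Epha5, Efnb2 and Efna5.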
